A study of Mus musculus with 55 samples.

Results

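Hepatic de novo lipogenesis turns acetyl-CoA into fatty acid, and the transcripts of 10 of its enzymes and regulators were followed here in mouse liver after deletion of *Rnf43* and *Znrf3* (R&Zdel), with weight on chronic CCl4 damage and partial hepatectomy. The 10 genes, *Acly*, *Acaca*, *Acacb*, *Fasn*, *Elovl6*, *Scd1*, *Me1*, *Thrsp*, *Srebf1* and *Mlxipl*, were taken by symbol from the 34490 gene symbols that both batches of deposited counts share, and all 10 passed the filter on low counts in every model. The livers came from C57BL/6 mice carrying floxed *Rnf43* and *Znrf3*, which encode membrane ubiquitin ligases that remove WNT receptors from the cell surface. In R&Zdel mice Cre was supplied either by tamoxifen acting on AlbCre-ERT2, which is driven by the albumin promoter, or by an AAV8 virus with the hepatocyte TBG promoter, and for R&Zflox controls the methods name vehicle or a null virus. The study's sample list nevertheless gives tamoxifen for the batch 1 and 7M libraries of both genotypes, and these sources do not settle which controls received it. Deletion was induced in adult mice, and the study's methods count the months from deletion. The undamaged groups were collected at 1, 3 and 7 months on that count (1M, 3M, 7M). The CD groups were collected at 4, 50 and 170 days after the last of repeated CCl4 injections, and the PHx groups at 7 and 21 days after partial hepatectomy.

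The CD groups (listed under tamoxifen, batch 1, all listed as male) had 2 libraries of each genotype at 4 and at 170 days, and 2 R&Zdel libraries against a single R&Zflox library at 50 days. The PHx groups (virus, batch 2) had 3 libraries of each genotype at each time, all listed as male except R&Zdel PHx 21d replicate 3, and were read beside 4 undamaged 1M libraries of each genotype in the same batch. The labels mark the CD libraries of both genotypes as chronically damaged, whereas the study's methods also mention unrecombined littermates that received corn oil alone, so that what each R&Zflox CD mouse received is not settled by these sources. The labels name no animals, while the study calls the columns of an RNA-seq heat map independent biological replicates and speaks of mice in its hepatectomy model. The p-values measure the spread between these libraries. In whole liver, fewer cells of a type and less RNA per cell cannot be told apart.

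Lipogenesis begins when ATP citrate lyase splits cytosolic citrate into acetyl-CoA. Acetyl-CoA carboxylase then makes malonyl-CoA, fatty acid synthase builds palmitate with NADPH that malic enzyme helps to supply, and an elongase and a desaturase lengthen and desaturate the product. In liver the program follows feeding, with SREBP-1c (*Srebf1*) responding to insulin and ChREBP (*Mlxipl*) to carbohydrate, and it is central to fatty liver.

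Depth ranged from 11721687 to 38692089 counts per library (median 22982428), 48 of the 53 libraries with counts had a group in the labels, and the 5 others entered no comparison. Whole-gene counts of the targeted genes did not fall with deletion. Levels are given as CPM, the counts of a gene relative to the total of its library, after TMM scaling within a batch. At CD 4d *Rnf43* stood at 25.3 and 24.3 CPM in R&Zdel and at 11.0 and 5.16 CPM in R&Zflox, so counts over the whole gene do not check the loss of the floxed exons. Marker genes of hepatocytes were high in every library, as the tissue label states.

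Promoters of 4 genes that were called between genotypes are shown first, since *Acacb*, *Acly* and *Thrsp* were called after CCl4 and *Fasn* in undamaged 7M livers. *Srebf1* was also called after CCl4, and its 3 windows are not printed here. Each window holds the 250 bases before a RefSeq transcript start in GRCm38.p6, printed 5′ to 3′ on the strand of the gene. Capitals mark the letters of a CCAAT box (ATTGG or its reverse complement) or a GC box (GGGCGG or its reverse complement), searched on both strands, and in *Fasn* a CCAAT and an ATTGG overlap.
*Acacb* (chr5:114165268-114165517, plus strand): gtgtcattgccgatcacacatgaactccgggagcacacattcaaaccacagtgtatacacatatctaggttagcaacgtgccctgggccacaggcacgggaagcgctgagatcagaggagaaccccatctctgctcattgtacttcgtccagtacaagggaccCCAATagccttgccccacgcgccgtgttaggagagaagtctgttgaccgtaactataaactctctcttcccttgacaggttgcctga
*Acly* (chr11:100528001-100528250, minus strand): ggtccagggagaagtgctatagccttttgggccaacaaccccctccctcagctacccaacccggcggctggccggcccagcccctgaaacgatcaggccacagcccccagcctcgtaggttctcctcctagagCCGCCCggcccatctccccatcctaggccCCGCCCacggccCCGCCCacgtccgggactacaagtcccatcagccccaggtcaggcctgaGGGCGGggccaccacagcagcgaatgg
*Thrsp* (chr7:97417551-97417800, minus strand): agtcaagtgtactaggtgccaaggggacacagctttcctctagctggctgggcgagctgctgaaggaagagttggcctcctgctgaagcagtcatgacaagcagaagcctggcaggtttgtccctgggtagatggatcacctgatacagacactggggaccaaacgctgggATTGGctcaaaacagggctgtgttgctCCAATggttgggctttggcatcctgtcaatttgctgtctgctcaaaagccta
*Fasn* (chr11:120824548-120824797, minus strand): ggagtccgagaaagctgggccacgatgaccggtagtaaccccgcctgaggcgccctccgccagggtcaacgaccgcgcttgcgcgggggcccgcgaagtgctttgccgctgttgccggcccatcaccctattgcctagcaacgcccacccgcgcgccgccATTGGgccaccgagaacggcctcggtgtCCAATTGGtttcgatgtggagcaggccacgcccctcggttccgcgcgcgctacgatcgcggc
The *Acacb* and *Fasn* windows lie inside the spans that the counted annotation gives these genes, and the start at the outer end of each span has no window here. A CCAAT box occurred in 7 of the 13 member windows, which belong to 9 members, and in 33.8% of all 32851 windows. A GC box occurred in 5 of the 13 and in 32.7% of all windows. The E-box CACGTG, the core that ChREBP and its partners are known to bind, was found in 1 member window (*Mlxipl*) and in 6.02% of all windows, the sterol regulatory element TCACNCCAC in 1 (*Mlxipl*) and in 1.05%, and the TCF/LEF core CTTTGA, linked to WNT signalling, in 2 (*Elovl6* and *Me1*) and in 13.8%. These are matches of letters and carry no measure of binding.

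The 10 genes made up 0.221 to 1.44% of the counts on shared symbols over the 48 libraries (median 0.752%), and *Scd1* alone contributed 35.3 to 88.2% of their sum. Divided by exonic length, the median level in batch 1 was highest for *Scd1*, the delta-9 desaturase, at 1345 CPM per kilobase, and next for *Thrsp*, the small nuclear protein Spot 14 that tracks lipogenesis, at 847 CPM per kilobase. *Fasn* (64.6 CPM per kilobase), *Acly* (52.0) and *Me1* (37.0) formed the middle, followed by *Mlxipl* (26.5), *Srebf1* (22.6) and the elongase *Elovl6* (11.8). The carboxylases were lowest, with *Acacb*, the mitochondrial ACC2 whose malonyl-CoA restrains fatty acid oxidation, at 4.46 and *Acaca*, the cytosolic ACC1 that feeds synthesis, at 1.87 CPM per kilobase. Batch 2 kept this order except that *Mlxipl* (38.9 CPM per kilobase) stood above *Me1* (27.9). From the lowest to the highest library of batch 1 the genes spanned 2.76-fold (*Acaca*) to 10.6-fold (*Scd1*), apart from *Thrsp*, which spanned 35.0-fold.

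At 4 days after CCl4, *Acacb* and *Acly* were lower in R&Zdel than in R&Zflox. *Acacb* measured 83.7 and 57.8 CPM in the R&Zflox libraries and 19.9 and 13.2 CPM in the R&Zdel libraries, so the genotypes did not overlap. The log2 fold change was -2.02 ± 0.33 (SE, n = 2 and 2), with an adjusted p of 0.00576 by the edgeR quasi-likelihood test, and a gene counted as called where that p lay under 0.1 and the log2 change beyond 1 in either direction. *Acly*, which feeds the pathway with acetyl-CoA, measured 551 and 489 CPM in R&Zflox and 169.9 and 144 CPM in R&Zdel, again without overlap (log2 fold change -1.65 ± 0.52, edgeR adjusted p = 0.0578).

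*Scd1* and *Me1* also lay lower in both R&Zdel libraries but missed the threshold. *Scd1* measured 12219.9 and 11194 CPM in R&Zflox against 5588 and 3798 CPM in R&Zdel (log2 fold change -1.24 ± 0.64, edgeR adjusted p = 0.198). *Me1* measured 169 and 137 CPM in R&Zflox against 91.9 and 58.0 CPM in R&Zdel (log2 fold change -0.95 ± 0.48, adjusted p = 0.192). *Acaca*, at 43.7 and 29.6 CPM in R&Zflox and 27.4 and 18.1 CPM in R&Zdel, differed by -0.61 ± 0.24 on the log2 scale (adjusted p = 0.106).

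*Fasn*, the synthase itself, was close between genotypes, at 762 and 355 CPM in R&Zflox and 742 and 387 CPM in R&Zdel (log2 fold change 0.10 ± 0.50). *Srebf1* differed by 0.21 ± 0.28, *Elovl6* by -0.29 ± 0.42, *Mlxipl* by -0.81 ± 0.42 and *Thrsp* by 0.86 ± 0.64 on the log2 scale, none of them called. The members thus did not move as 1 block at this time. Over the 10 genes 0 were called higher and 2 lower, beside 15.2% of the 11358 genes tested, and a count this close to the background is no result about the set. The median log2 fold change was -0.71 over the 10 genes and 0.06 over all genes, and 5 of the 10 separated the genotypes without overlap, beside 68.5% of all genes.

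The *Acacb* call held in all 12 alternative settings (adjusted p up to 0.0537), whereas the *Acly* call was lost when any of the 4 libraries was left out (adjusted p 0.138 to 0.226). Without R&Zdel CD 4d replicate 1, *Mlxipl* was called lower (log2 fold change -1.43, adjusted p = 0.0918).

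Other cell types and other programs moved in the same libraries. All 5 cholangiocyte markers were called higher in R&Zdel at CD 4d, with a summed level of 2669 to 4156 CPM against 93.9 to 162 CPM in R&Zflox, and *Col1a1* and *Col3a1* of the 5 stellate cell or fibroblast markers were called higher. The 5 hepatocyte markers measured summed to 48182 to 67525 CPM in R&Zdel against 97633 to 98113 CPM in R&Zflox, although 0 of the 5 were called. Of the 5 macrophage markers *Cd5l* was called lower (-1.36 ± 0.51), and no endothelial, lymphocyte, adipocyte or pancreatic acinar marker that was tested was called. Of the 10 clock and output genes *Per1* (2.87 ± 0.63) and *Per2* (3.53 ± 0.63) were called higher and *Nr1d1* (-3.22 ± 0.72) lower on the log2 scale, and *Per2* stood at 9.21 to 15.1 CPM in R&Zdel against 0.833 to 1.37 CPM in R&Zflox. The hour of collection and the feeding state are not given in the sources used here, and the part of these differences in the lipogenic results was not tested.

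**Figure D1:**
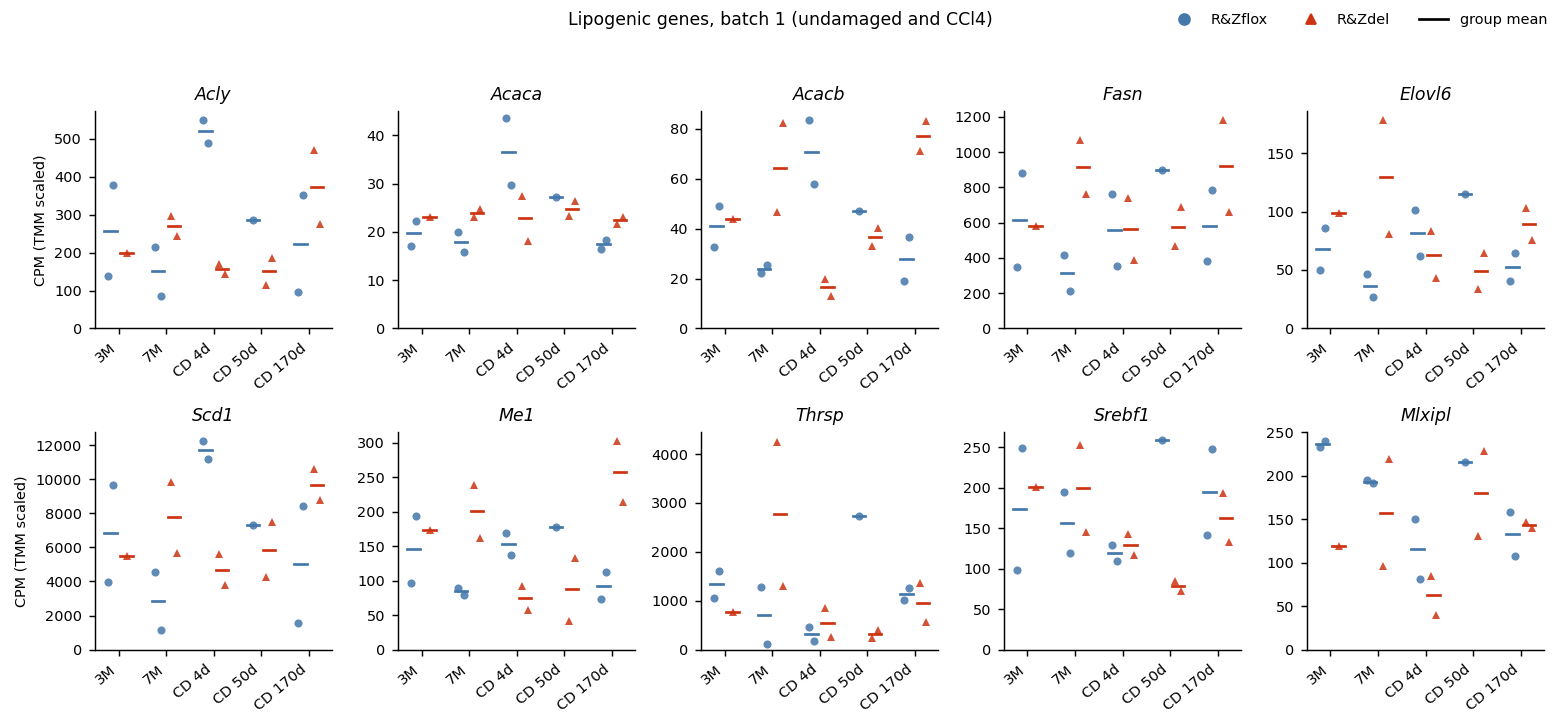
Each panel plots 1 gene in batch 1, with TMM-scaled CPM on a linear axis from 0 against the condition, R&Zflox as blue circles, R&Zdel as red triangles and bars for group means. At CD 4d both R&Zdel points of Acacb (19.9 and 13.2 CPM) lie far below the R&Zflox points (83.7 and 57.8 CPM), and at CD 170d they lie above them.

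The surrounding pathway at CD 4d was tested with lists of its suppliers, sensors and outputs. Of the 9 genes of acetyl-CoA and NADPH supply 0 were called higher and 2 lower, *Acss2* (-1.68 ± 0.33), which makes acetyl-CoA from acetate, and *Slc25a1* (-1.01 ± 0.22), the mitochondrial citrate carrier. Of the 6 genes of glucose entry and glycolysis 1 was called higher and 1 lower, the lower being ketohexokinase *Khk* (-1.27 ± 0.32). Of the 8 SREBP processing and LXR genes only *Scap* (-1.12 ± 0.20), the escort of SREBP, was called, of the 4 genes of ACC control only malonyl-CoA decarboxylase *Mlycd* (-1.03 ± 0.21), and of the 2 ChREBP partners none. Among 7 other lipogenic enzymes *Elovl5* (-1.57 ± 0.53) and *Acsl5* (-1.05 ± 0.35) were called lower. Of the 9 fasting genes 0 were called higher and 3 lower, *G6pc* (-3.28 ± 0.51), *Igfbp1* (-2.28 ± 0.68) and *Pck1* (-1.63 ± 0.50), the first and last of which are enzymes of glucose output. These counts stand beside the 15.2% of all genes called, and no list was tested as a set.

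From 4 to 170 days after CCl4 the carboxylase *Acacb* moved in opposite directions in the genotypes. In R&Zdel it was lower at 4 days (19.9 and 13.2 CPM) than at 170 days (71.3 and 83.3 CPM), by -2.12 ± 0.33 on the log2 scale (edgeR adjusted p = 0.00368). In R&Zflox it was higher at 4 days (83.7 and 57.8 CPM) than at 170 days (19.2 and 36.6 CPM), by 1.36 ± 0.32 (adjusted p = 0.0633), a call lost with the compared groups fitted alone (0.172). The genotype effect at 4 days minus that at 170 days, tested directly as an interaction, was -3.48 ± 0.46 for *Acacb* (adjusted p = 0.0162), a call that held in all 16 alternatives (adjusted p up to 0.0733).

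*Me1*, which supplies NADPH, was the other gene called in the interaction (-2.41 ± 0.69, edgeR adjusted p = 0.09). It measured 302 and 214 CPM in R&Zdel at 170 days against 91.9 and 58.0 CPM at 4 days (-1.68 ± 0.49, adjusted p = 0.0325), while in R&Zflox it measured 73.4 and 112 CPM at 170 days against 169 and 137 CPM at 4 days (0.74 ± 0.48, adjusted p = 0.459). The *Me1* interaction is weakly held, since it was lost when any CD 4d or CD 170d library but R&Zflox CD 170d replicate 2 was left out (adjusted p 0.133 to 0.236). The interaction values of *Acly* (-2.37 ± 0.73, adjusted p = 0.109) and *Scd1* (-2.18 ± 0.90, adjusted p = 0.192) were as large but were not called. Both were called without R&Zflox CD 170d replicate 2 (adjusted p = 0.00487 for *Acly* and 0.0065 for *Scd1*).

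Over the members, R&Zdel had 3 lower at 4 than at 170 days (*Acacb*, *Me1* and *Mlxipl*, the last at -1.09 ± 0.42, adjusted p = 0.0788), beside 22% of genes called. R&Zflox had 2 higher at 4 days (*Acaca* at 1.08 ± 0.24, adjusted p = 0.0541, and *Acacb*), beside 4.3% of genes. The interaction had 2, beside 6.92% of genes. These comparisons share libraries with one another and with the genotype comparisons at each time, so their agreement is not a separate result. In R&Zflox both calls were lost with the compared groups fitted alone (adjusted p = 0.172 for *Acacb* and 0.137 for *Acaca*). *Acacb* was also lost without CD 4d replicate 1 (adjusted p = 0.248), CD 4d replicate 2 (0.157) or CD 170d replicate 1 (0.161), and *Acaca* without CD 4d replicate 1 (0.234) or CD 170d replicate 1 (0.144). In R&Zdel, *Me1* and *Mlxipl* were lost without CD 4d replicate 2 (0.179 and 0.365) or CD 170d replicate 1 (0.146 and 0.207), and *Mlxipl* also without CD 170d replicate 2 (0.18).

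The balance of the carboxylases within a library is a ratio that library scaling cannot move. It is built from the same *Acacb* and *Acaca* counts as the tests above, so its pattern is not a separate result. The ratio of *Acacb* to *Acaca*, in counts per exonic length, was 0.949 and 0.948 in the R&Zdel CD 4d libraries, below every other assigned library of batch 1. It was 2.5 and 2.55 in R&Zflox CD 4d. By CD 170d it was 4.32 and 4.69 in R&Zdel and 1.52 and 2.6 in R&Zflox, and undamaged 7M livers of batch 1 gave 2.64 and 4.36 in R&Zdel and 1.45 and 2.11 in R&Zflox. The single R&Zflox CD 50d library gave 2.25 and the R&Zdel CD 50d libraries 1.86 and 2.0. In batch 2 the ratio overlapped between genotypes in the PHx 7d, PHx 21d and 1M groups. A low ratio also occurred in undamaged controls of batch 2, at 0.867 in R&Zflox 3M replicate 5 and 1.03 in R&Zflox 1M replicate 3. The ratio is given as a description, since 2 against 2 libraries cannot reach a small exact p.

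**Figure D2:**
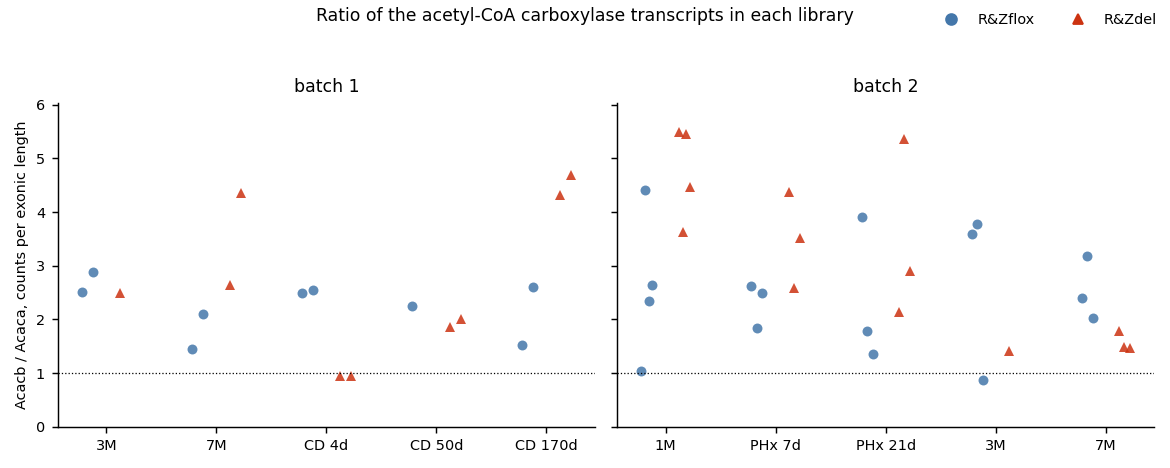
The ratio of Acacb to Acaca in counts per exonic length is plotted on a linear axis for each assigned library, by condition, in batch 1 (left) and batch 2 (right), with R&Zflox as blue circles, R&Zdel as red triangles and a dotted line at 1. The R&Zdel CD 4d points (0.949 and 0.948) lie under the line and the R&Zdel CD 170d points (4.32 and 4.69) are the highest of the CD groups. An undamaged R&Zflox 3M point of batch 2 (0.867) also lies under the line.

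At 50 days after CCl4, *Thrsp* and *Srebf1* were lower in R&Zdel. *Thrsp* measured 2728 CPM in the single R&Zflox library and 234 and 406 CPM in R&Zdel (log2 fold change -3.00 ± 0.75, edgeR adjusted p = 0.0749). *Srebf1*, the gene of SREBP-1, measured 259 CPM in R&Zflox and 84.2 and 71.8 CPM in R&Zdel (-1.66 ± 0.33, adjusted p = 0.0538). With 1 control library these differences rest on a spread taken from the other groups, and the control level is that of 1 library. That library was the highest R&Zflox library of batch 1 for both genes. The other R&Zflox libraries of the batch had *Thrsp* at 121 to 1614 CPM, a range that holds both R&Zdel values. For *Srebf1* both R&Zdel values lay below every R&Zflox library of the batch, the lowest of which stood at 98.4 CPM.

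The remaining 8 genes were not called at 50 days, and their log2 fold changes ran from -1.15 ± 0.50 (*Elovl6*) to -0.06 ± 0.29 (*Acaca*), all negative. The calls numbered 2 of 10, beside 5.58% of the 11358 genes, the member median was -0.70 against 0.01 over all genes, and 8 of the 10 did not overlap, beside 75.6% of all genes. *Srebf1* was lost without R&Zdel CD 50d replicate 1 (adjusted p = 0.157) and with all batch 1 libraries in the model (0.109), and *Thrsp* without R&Zdel CD 50d replicate 1 (0.225) or replicate 2 (0.106). The study lists both R&Zflox CD 170d libraries also under 50 days, and with them counted as controls *Srebf1* (-1.40, adjusted p = 0.0124) and *Thrsp* (-2.30, adjusted p = 0.0469) were still called.

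The pathway lists at 50 days are read beside the 5.58% of all genes called, and none was tested as a set. Of the 6 genes of glucose entry and glycolysis 0 were called higher and 3 lower, among them *Pklr* (-1.75 ± 0.36), the liver pyruvate kinase and a ChREBP target, and *Slc2a2* (-1.36 ± 0.33), the hepatic glucose transporter. Of the 2 ChREBP partners *Mlx* was called lower (-1.16 ± 0.21), and of the 4 genes of ACC control *Mid1ip1*, a paralogue of *Thrsp* that promotes ACC polymerisation (-2.23 ± 0.53). Of the 7 other lipogenic enzymes *Aacs* was called lower (-1.36 ± 0.37) and *Scd2*, a desaturase of other tissues, higher (3.56 ± 1.02). No gene of the acetyl-CoA and NADPH supply, SREBP and LXR, fasting or clock lists was called by edgeR at 50 days. The cholangiocyte markers summed to 605 to 882 CPM in R&Zdel against 112 CPM, the hepatocyte markers to 57404 to 104586 CPM against 113456 CPM, and *Alb* was called lower (-1.62 ± 0.48). The part of these differences in the lipogenic results was not tested.

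At 170 days after CCl4 no member was called by edgeR, and the highest values were those of *Acacb* and *Me1*. *Acacb* stood at 71.3 and 83.3 CPM in R&Zdel and at 19.2 and 36.6 CPM in R&Zflox, without overlap (log2 fold change 1.46 ± 0.33, adjusted p = 0.135). *Me1* stood at 302 and 214 CPM against 73.4 and 112 CPM, also without overlap (1.46 ± 0.49, adjusted p = 0.362). *Scd1* measured 10609 and 8755 CPM in R&Zdel but 1577 and 8425 CPM in R&Zflox (0.94 ± 0.63), so R&Zflox replicate 2 lay close to the R&Zdel libraries and replicate 1 far below them.

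R&Zflox CD 170d replicate 1 was the lower of its pair for 9 of the 10 genes. The number of members called was 0, beside 0.625% of genes (71 of 11358), where 1052 genes, 2 of the members among them, had an unadjusted p under 0.05. The member median was 0.69 against -0.004 over all genes, and 5 of the 10 did not overlap between genotypes, all higher in R&Zdel, beside 37.6% of all genes. Leaving out R&Zflox CD 170d replicate 2 gave 3 calls, *Acacb* (1.99, adjusted p = 0.0189), *Acly* (1.93, 0.054) and *Scd1* (2.59, 0.0314). The DESeq2 Wald test called *Acacb* (adjusted p = 0.00194) and *Me1* (0.0452), and edgeR's likelihood ratio test called *Acacb* (0.00394).

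None of the pathway, fasting or clock lists had a called gene at 170 days by edgeR, while 3 genes each of the supply, other lipogenic, fasting and clock lists had an unadjusted p under 0.05. The hepatocyte markers summed to 71151 to 72104 CPM in R&Zdel and 92405 to 142768 CPM in R&Zflox, and the cholangiocyte markers to 266 to 317 CPM and 69.7 to 300 CPM. Of the 5 adipocyte markers *Cfd* was called lower (-3.27 ± 0.65), at 4.06 to 10.2 CPM in R&Zdel and 66.3 to 68.5 CPM in R&Zflox, while *Lep* and *Plin1* had 0 counts in all 4 libraries and *Adipoq* reached at most 0.754 CPM. The defining adipocyte markers other than *Cfd* were thus at or near 0.

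**Figure D3:**
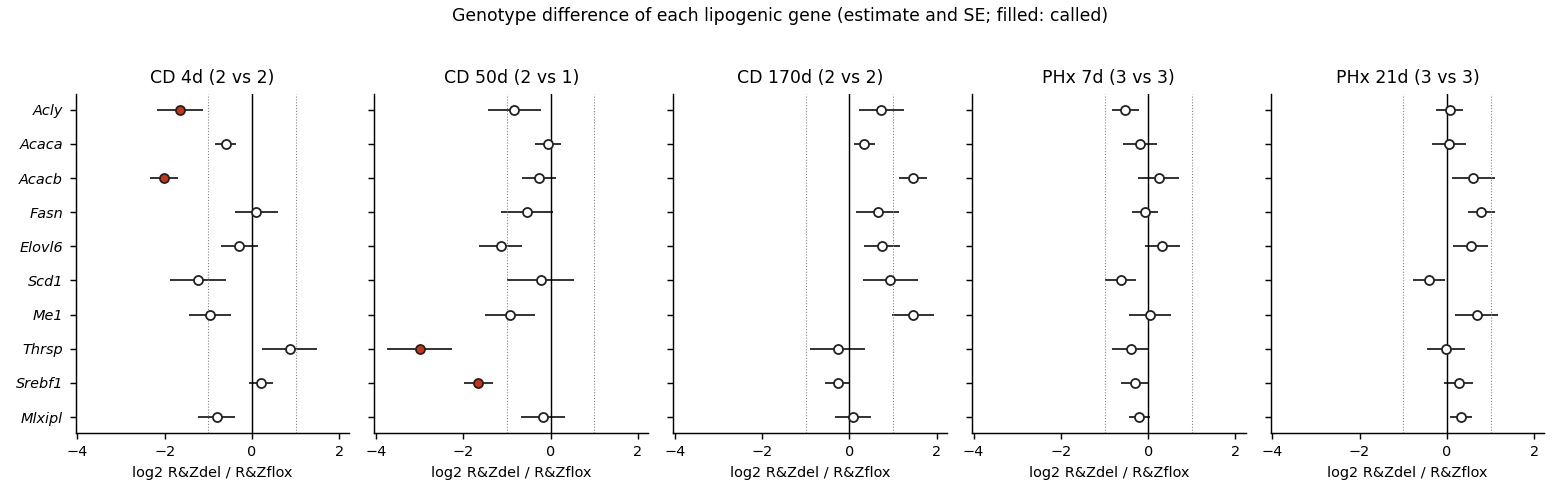
The log2 fold change of R&Zdel over R&Zflox is plotted for each gene, with its SE as a horizontal bar, at the 3 CD times and the 2 PHx times; filled points were called and dotted lines mark the fold threshold. Acacb moves from -2.02 at CD 4d to 1.46 at CD 170d, and at PHx 7d and 21d no point is filled.

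Set against undamaged 3M and 7M livers of the same batch, *Acacb* at CD 4d was higher in R&Zflox and lower in R&Zdel. The study places CD 4d earlier after recombination than these undamaged livers. Damage and time since recombination, or age, thus cannot be told apart in the CD 4d comparisons. In R&Zflox the undamaged 3M and 7M libraries lay between 22.1 and 49.3 CPM and the CD 4d libraries at 83.7 and 57.8 CPM (log2 fold change 1.24 ± 0.34, edgeR adjusted p = 0.0718). In R&Zdel the undamaged libraries lay between 44.1 and 82.4 CPM and the CD 4d libraries at 19.9 and 13.2 CPM (-1.48 ± 0.43, adjusted p = 0.023). *Acaca* rose under the fold threshold in R&Zflox (0.90 ± 0.22, adjusted p = 0.0494).

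*Thrsp* in R&Zdel was lower at CD 4d (848 and 261 CPM) than in undamaged livers (777 to 4246 CPM), by -3.01 ± 0.84 (edgeR adjusted p = 0.0198), but the call was lost without the sex term of the model (-1.31, adjusted p = 0.264) and with the compared groups fitted alone (-1.33, 0.184). The ranges overlap through the 3M R&Zdel library, the 1 undamaged R&Zdel library of this batch listed as female, at 777 CPM, and the 2 male 7M libraries stood at 1299 and 4246 CPM. Calls numbered 1 of 10 in R&Zflox, beside 4.68% of genes, and 2 of 10 in R&Zdel, beside 29.6% of genes. The member median was 0.50 in R&Zflox and -1.12 in R&Zdel. *Acacb* in R&Zdel was lost without CD 4d replicate 2 (-1.22, adjusted p = 0.119), and *Acacb* in R&Zflox without CD 4d replicate 1 (0.313), CD 4d replicate 2 (0.197), 3M replicate 2 (0.145) or 7M replicate 1 (0.131). At CD 170d no member was called against undamaged 7M livers in either genotype, beside 0% of genes by edgeR in both, where 648 genes in R&Zflox (0 members) and 782 in R&Zdel (1 member) had an unadjusted p under 0.05. The largest of these member values was *Thrsp* in R&Zdel (-1.54 ± 0.70, adjusted p = 0.747).

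After partial hepatectomy no member separated the genotypes. At 7 days *Acly* measured 511, 229 and 445 CPM in R&Zflox and 224, 293 and 303 CPM in R&Zdel (log2 fold change -0.52 ± 0.31, edgeR adjusted p = 0.873). *Scd1* measured 6971, 2856 and 5507 CPM in R&Zflox and 3160, 4515 and 2139 CPM in R&Zdel (-0.63 ± 0.36, adjusted p = 0.87). *Acacb*, which separated the genotypes after CCl4, measured 102, 51.3 and 106 CPM in R&Zflox and 73.0, 121 and 109 CPM in R&Zdel (0.24 ± 0.48). The genotypes overlapped for all 10 genes.

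At 21 days *Fasn* had the largest value for its error. It measured 598, 642 and 426 CPM in R&Zflox and 390, 1356 and 928 CPM in R&Zdel, with overlap (0.79 ± 0.30, adjusted p = 0.492). The lowest of these, R&Zdel replicate 3, is the library listed as female, which was the lowest of its group for 8 of the 10 genes, and among male livers alone the *Fasn* change was 1.06 ± 0.25 (adjusted p = 0.115). *Acacb* measured 140, 63.9 and 38.7 CPM in R&Zflox and 64.6, 178 and 111 CPM in R&Zdel (0.61 ± 0.48).

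Calls of R&Zdel against R&Zflox numbered 0 of 10 at 7 days, beside 0.274% of the 12773 genes, and 0 of 10 at 21 days, beside 0.329%. By edgeR 0 members at 7 days and 1 at 21 days had an unadjusted p under 0.05, and the DESeq2 Wald test called 0 at both times. With an unadjusted p under 0.05 and the same fold, the rule used in the study for PHx, they were again 0, beside 3.99% at 7 days and 6.56% at 21 days. The member medians were -0.20 and 0.30. A miss does not show equality. Simulated log2 fold changes of 2 were recovered for 35% of genes at 7 days and 36.5% at 21 days, against 91% at CD 4d. Those genes were drawn from all genes tested, so the shares do not give the chance of a call for the members. The member SEs ran from 0.24 (*Mlxipl*) to 0.48 (*Acacb*) at 7 days and from 0.25 (*Mlxipl*) to 0.49 (*Me1*) at 21 days. At CD 4d they ran from 0.24 (*Acaca*) to 0.64 (*Scd1*).

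Against undamaged 1M livers no member was called at either time in either genotype. The background was 0.0235% of genes in R&Zflox and 0.0157% in R&Zdel at 7 days, and 0% in both genotypes at 21 days by edgeR, where 885 genes in R&Zflox and 627 in R&Zdel, 1 member in each, had an unadjusted p under 0.05. *Thrsp* had the largest values at 21 days, at 908, 1502 and 1723 CPM in R&Zflox after PHx against 291 to 836 CPM at 1M (1.25 ± 0.41, adjusted p = 0.567), and 791, 1759 and 1314 CPM in R&Zdel against 370 to 1132 CPM (0.91 ± 0.43, adjusted p = 0.958). Among male R&Zdel livers alone the *Thrsp* change was called (1.98, adjusted p = 0.0736). The genotype effect did not differ in a called way between 7 and 21 days for any member (edgeR, 0% of genes, with 774 at an unadjusted p under 0.05, 0 of them members). Lowest among the member values was *Fasn* (-0.85 ± 0.43, adjusted p = 0.836).

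Of the pathway lists after PHx, *Pck1* was called lower at 7 days (-1.99 ± 0.37, edgeR adjusted p = 0.0194) and *Nr1h2*, the gene of LXR-beta, higher at 21 days (1.98 ± 0.38, adjusted p = 0.0189). *Alb* was called lower in R&Zdel at both times (-1.53 ± 0.25 and -1.09 ± 0.25), and the hepatocyte markers summed to 59864 to 85262 CPM against 123138 to 149248 CPM at 7 days. No member was called beside that difference.

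**Figure D4:**
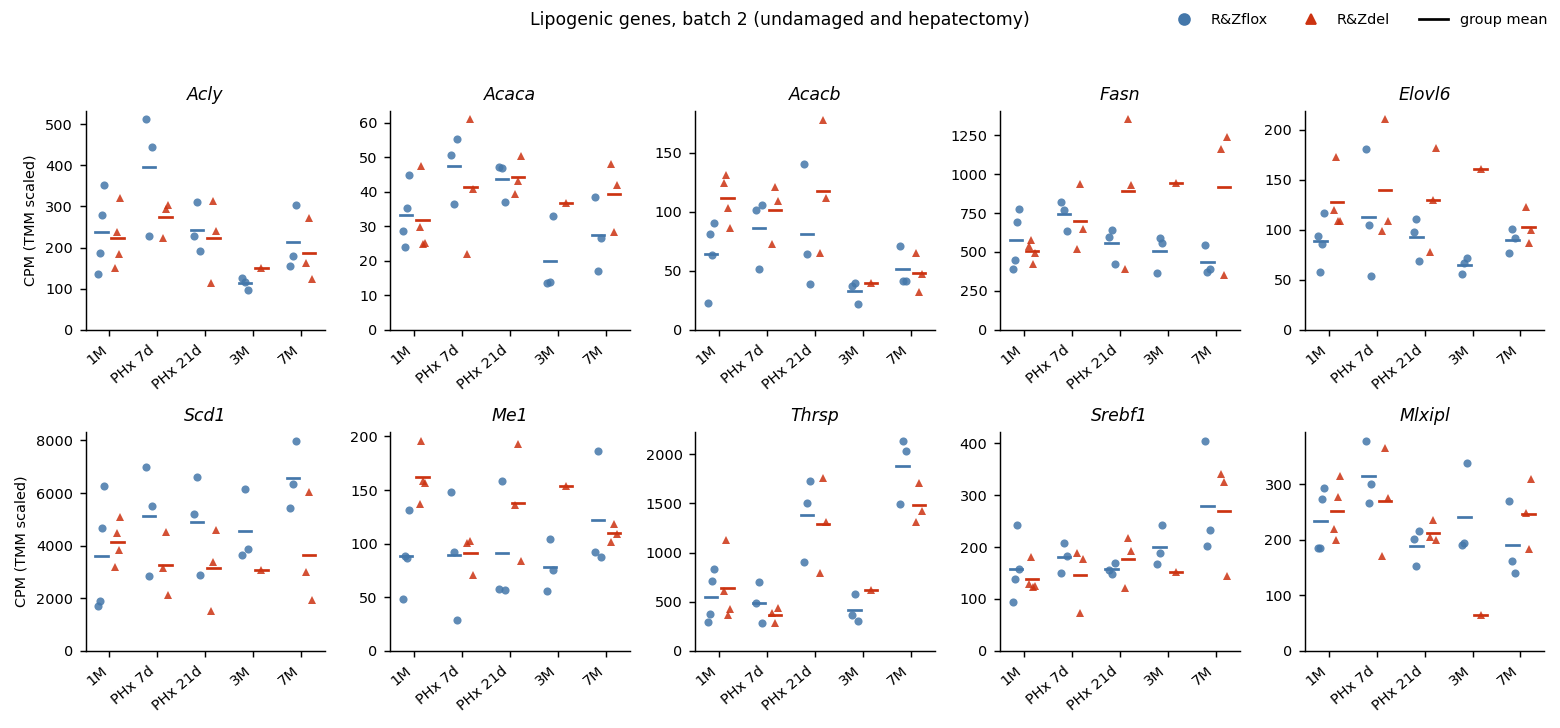
Each panel plots 1 gene in batch 2, with TMM-scaled CPM on a linear axis from 0 against the condition, R&Zflox as blue circles, R&Zdel as red triangles and bars for group means. The genotypes overlap for all genes at PHx 7d and PHx 21d, and Me1 at 1M is the exception among the undamaged 1M groups.

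The undamaged groups give the baseline for these comparisons. At 7M *Fasn* was called higher in R&Zdel (1.20 ± 0.30, edgeR adjusted p = 0.0903), beside 0.451% of the 12848 genes. In batch 1 it measured 1071 and 763 CPM in R&Zdel against 414 and 211 CPM in R&Zflox, and in batch 2 1164, 352 and 1239 CPM against 546, 370 and 392 CPM, where R&Zdel replicate 4 overlapped the controls. The control at 211 CPM is listed as female and every other 7M library as male, and the *Fasn* call was lost among males alone. Within batches the change was 1.15 in batch 1 and 1.09 in batch 2 and was called in neither (adjusted p = 1 and 0.485), and it was lost under 13 of 20 alternatives, among them leaving out any 7M library but R&Zdel replicate 4.

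At 1M *Me1* measured 137, 196, 158 and 156 CPM in R&Zdel and 48.1, 88.2, 87.1 and 131 CPM in R&Zflox, without overlap, though not called (0.92 ± 0.33, adjusted p = 0.35). It was the 1 member of 10 that did not overlap, beside 4.68% of genes, and 0 members were called by edgeR, beside 0.436% (2 had an unadjusted p under 0.05). *Scd1* at 1M followed the listed sex in R&Zflox, at 1695 and 1883 CPM in females and 4656 and 6250 CPM in males, while in R&Zdel females measured 3189 and 4497 CPM and males 3846 and 5079 CPM. That difference between sexes was not tested. At 3M, with 1 R&Zdel library in each batch, 0 members were called by edgeR, beside 0.226% (3 had an unadjusted p under 0.05). *Mlxipl* had the largest negative value (-1.26 ± 0.41, edgeR adjusted p = 0.401) and *Elovl6* the largest positive value (1.11 ± 0.38, adjusted p = 0.454).

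Most pairs of members were positively correlated across libraries. Over the 11 CD libraries the Pearson correlation of log2 CPM ran from -0.18 to 0.91 (*Acly* and *Scd1*) over 45 pairs, with a median of 0.52 and 42 pairs positive. With group means removed the median was 0.70 and 43 pairs were positive. Over the 20 PHx and 1M libraries it ran from -0.39 to 0.76, with a median of 0.31 and 39 pairs positive, or 0.40 and 41 with group means removed. Over all pairs of tested genes 50.4% were positive in the CD libraries and 51.3% in the PHx and 1M libraries, with medians of 0 and 0.01. These correlations describe libraries that share depth, scaling and collection, and carry no test. Apart from the members, 5 genes had the highest correlation with the mean of the 10 scaled members in each set of libraries. Over the CD libraries they were *Csnk2a1* (r = 0.92), *Gm35986* (0.92), *Lgals8* (0.91), *Pklr* (0.90) and *Ube2v2* (0.89). Over the PHx and 1M libraries they were *Rnf149* (0.85), *Slc25a1* (0.77), *Pgp* (0.73), *Rhou* (0.73) and *Neurl2* (0.72).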

How the data were processed

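RNA of whole livers was sequenced as single reads of Smart-Seq2 libraries. Per the submitters' processing notes and the methods the authors aligned reads to mm10 with STAR 2.5.0a. The processing notes name featureCounts 1.5.0-p3 for batch 1 and 1.5.0-p1 for batch 2 for counting, and Trim Galore, whereas the methods name a later featureCounts version and Sickle for read filtering, and which applies to which batch is not settled by these sources. The deposited values are raw read counts, not normalized or filtered, and the file headers of batch 1 show counting without strand, so reads of overlapping antisense genes cannot be told apart.

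Counts on symbols shared by both batches were tested with edgeR 4.0.16 (R 4.3.3), using TMM scaling, quasi-likelihood F tests and Benjamini-Hochberg adjustment over all genes tested. The SE is the log2 fold change over the square root of F. The CD model held 11 libraries and group terms (CPM above 1 in 6 libraries). The batch 1 model added undamaged libraries and sex (6 libraries), the PHx model held 20 libraries with sex, and the undamaged model 25 libraries with sex and batch (both CPM above 1 in 3 libraries). Printed CPM were TMM scaled within each batch. Levels across the batches were not tested against each other outside the undamaged model.

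The members and lists were chosen with earlier results of these data known. All members were tested in every comparison, but the values of only some are printed for several of them. Beside the members, at most 4 called genes were named per list and genotype comparison, and the 5 genes most correlated with the member mean. The lists were acetyl-CoA and NADPH supply, glucose entry and glycolysis, SREBP processing and LXR, ChREBP partners, ACC control, other lipogenic enzymes, fasting, clock, and markers of 8 cell types. Some genes of the glucose entry and glycolysis list are not reported here. Alternatives were DESeq2 size factors, the DESeq2 1.42.0 Wald test, edgeR's likelihood ratio test, no filter, no minimum fold, no sex term, fewer or more libraries in the fit, a replicate block and leaving out each library. A direction was read only where a log2 fold change was called or exceeded its SE in both fits. On simulated counts 200 genes, drawn at random from all genes tested, were given a log2 change of 2. The test called 91% of them at CD 4d, 70% at CD 50d and 82.5% at CD 170d. Promoter windows came from RefSeq (GRCm38.p6), with 13 windows for 9 members and none for *Scd1*.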

Additional observations from a re-analysis of the deposited data

Results flagged for a closer look

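The interaction of genotype with recovery time after CCl4 was called for *Acacb* (log2 value -3.48, edgeR adjusted p = 0.0162) and for *Me1* (-2.41, adjusted p = 0.09), each the genotype effect at 4 days minus that at 170 days.

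For 4 genes every R&Zdel library lay above every R&Zflox library at CD 170d and below the single R&Zflox library at CD 50d. This difference was not tested. Of all genes 37.6% did not overlap between genotypes at CD 170d and 75.6% at CD 50d. The share of all genes that reversed in this way was not counted, so the 4 are no result about the members. The ratio of group mean CPM, R&Zdel over R&Zflox, was 1.28 at 170 days and 0.908 at 50 days for *Acaca*, 2.77 and 0.78 for *Acacb*, 1.69 and 0.424 for *Elovl6*, and 2.78 and 0.49 for *Me1*, whose ratio at 50 days was 0.747 without R&Zdel replicate 1 and 0.233 without R&Zdel replicate 2. *Thrsp* in undamaged batch 1 livers gave a ratio of 0.581 at 3M and 3.94 at 7M, which was not tested. At 3M the single R&Zdel library is listed as female and both controls as male. At 7M R&Zflox replicate 5, listed as female, stood at 121.4 CPM and replicate 1, a male, at 1286.0 CPM, and the 7M ratio was 2.16 without replicate 5, 22.8 without replicate 1, 1.85 without R&Zdel replicate 1 and 6.03 without R&Zdel replicate 2. These ratios with a library left out were added after the values had been seen.

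One library stood apart within a group of 4 or more. *Srebf1* in R&Zdel 1M replicate 2 was at 180.8 CPM, a gap of 0.903 of the group's range, among 20 groups examined. Chance gives such a gap in about 1 of 20 groups.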

How the results depend on the processing

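Under the rule on direction no member fold change reversed among 1210 values with a library left out or 1770 under other settings, though 135 and 75 uncalled values lying within 1 SE in one of the fits changed sign. With a library left out 17 fold changes gained a call and 38 lost one, and under the other settings 55 gained and 11 lost one. The number of members called moved as follows, the cause not being tested. Without the filter on low counts it was 4 at CD 4d, 2 at CD 170d, 5 in R&Zflox and 5 in R&Zdel at CD 4d against 170d, 7 in their interaction, 4 in R&Zflox and 7 in R&Zdel at CD 4d against undamaged, and 1 each for R&Zdel CD 170d and R&Zflox PHx 21d against undamaged. The likelihood ratio test gave 1 at CD 170d, 4 in the interaction and 2 for R&Zflox CD 4d against undamaged. The DESeq2 Wald test gave 2, 4 and 2 there, 5 for R&Zdel CD 4d against undamaged and 1 at 3M. With the compared groups alone R&Zflox CD 4d against 170d gave 0, against undamaged 2, and 7M gave 0. With no minimum fold R&Zflox CD 4d against undamaged gave 2. The model of all batch 1 libraries gave 1 at CD 50d (*Srebf1* lost). Males alone gave 1 for R&Zdel PHx 21d against 1M and 0 at 7M, where batch 1 alone and batch 2 alone also gave 0, and the unadjusted rule gave 1 for R&Zflox PHx 21d against 1M.

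With each library left out the count ran from 1 to 2 at CD 4d, 0 to 2 at CD 50d, 0 to 3 at CD 170d, 0 to 4 in R&Zflox and 1 to 3 in R&Zdel at CD 4d against 170d, 1 to 4 in the interaction, 0 to 1 in R&Zflox and 1 to 4 in R&Zdel at CD 4d against undamaged, 0 to 1 at 7M, and 0 to 0 elsewhere.

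Deviations of same-numbered libraries correlated at 0.33 at CD 4d, -0.36 at CD 170d, -0.07 to -0.01 at PHx 7d and -0.03 to 0 at PHx 21d. The PHx values gave no sign that replicate numbers pair the libraries. At CD 4d and CD 170d, with 2 libraries per group, both pairs must give the same value, so these cannot decide whether the numbers pair libraries. With the replicate block CD 50d gave 1 call in place of 2 (*Thrsp* lost, adjusted p = 0.116) and the interaction 1 in place of 2 (*Me1* lost, 0.114). With the numbers crossed at CD 170d, an alternative chosen after the data were seen, the count stayed at 0. Genes called among all tested also moved, without the filter from 1729 to 2956 at CD 4d, from 634 to 1671 at CD 50d, from 71 to 600 at CD 170d, from 786 to 2159 in the interaction, from 35 to 103 at PHx 7d and from 42 to 154 at PHx 21d. The DESeq2 Wald test gave 1044 at CD 50d, 291 at CD 170d, 1293 in the interaction, 213 at PHx 7d and 437 at PHx 21d, and the likelihood ratio test 1028, 276, 1285, 71 and 127. The lowest count of a member in any library was 146 (*Acaca*, batch 2), and the biological coefficient of variation from edgeR's common dispersion was 0.245 in the CD model and 0.996 in the PHx model.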

Other observations

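The 5 libraries whose labels contradict each other on condition or time point, all of batch 1, entered no comparison. In them *Fasn* ranged from 388 to 1219 CPM (median 686), *Acly* from 260.1 to 492 CPM (median 350) and *Scd1* from 4178 to 11540.1 CPM (median 6260). *Acacb* ranged from 20.1 to 88.0 CPM (median 82.3), *Acaca* from 22.2 to 31.04 CPM (median 24.7), and *Thrsp* from 479 to 2446 CPM (median 1826). *Me1* ranged from 137 to 230.0 CPM, *Elovl6* from 77.0 to 180.4 CPM, *Srebf1* from 121 to 247 CPM and *Mlxipl* from 97.5 to 213 CPM.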
